A study of Mus musculus with 3 samples.

Results

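The 7 genes described here, Sox9, Acan, Matn1, Matn3, Snorc, Hapln1 and Comp, encode the transcription factor that sets up cartilage and 6 non-collagen proteins of cartilage. They were taken by name, as cartilage genes outside the collagens, from 21602 counted protein-coding genes. No measured value entered their choice, although it was made with earlier results of these data known. For each gene, unique fragments were counted over the gene body with 2 kb upstream and, separately, over the promoter, from 1000 bp before to 100 bp after the start. For Sox9 the 500 kb upstream were counted as well.

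Cartilage of the embryo forms where mesenchymal cells condense and become chondrocytes. SOX9 binds enhancers and promoters of cartilage genes together with SOX5 and SOX6, and its own gene lies beside a long stretch of DNA without other coding genes that holds many tissue-specific enhancers. Chondrocytes then fill their surroundings with collagen fibrils and aggrecan, whose complexes with hyaluronan are stabilised by link protein, while matrilins and COMP bridge the collagen and proteoglycan networks. SOX9 is not restricted to cartilage: neural progenitors, glia and several epithelia use it too.

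Chromatin was profiled by single-nucleus ATAC-seq, in which the transposase Tn5 cuts open DNA inside nuclei that each carry a droplet barcode. Wild-type mouse embryos of the C57BL/6JRj strain, littermates of embryos used for spatial profiling, gave 1 library each at stages E12.5, E13.5 and E15.5. Nuclei were released from several thick frozen sections per stage, stained with 7-AAD and sorted, so each library samples those sections and not a whole embryo. The deposited table held 153, 970 and 756 nuclei in 12 numbered clusters, of which clusters 2 and 4 were left out here.

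Clusters 1, 3 and 7 were compared with the other 7 clusters, called the rest. Levels are given as CPM, the fragments of a gene scaled to 1000000 gene fragments of the same nuclei. By marker lists, cluster 1 was mesenchyme-like, clusters 0 and 6 neuron-like, cluster 9 neural progenitor-like, cluster 10 muscle-like, and clusters 5 and 11 erythroid-like. Cluster 7 held the highest summed level of the 6 chondrocyte collagens at E13.5, 994 CPM against 483 CPM in the next cluster, and also the highest of 7 epithelial markers, 589 CPM against 394 CPM. At E15.5 its epithelial sum was still the highest, 477 CPM, but its collagen sum of 443 CPM stood behind that of cluster 3, 480 CPM. Clusters 3, 7 and 8 are therefore given by number only. Levels and fits used sums of fragments per cluster and library with at least 10 nuclei, and these 24 sums held 344772 to 8628521 gene fragments, cluster 7 had 36 nuclei at E13.5 and 67 at E15.5, and its 6 nuclei at E12.5 were too few for a level of its own. Ratios pooled over clusters used all nuclei, so they include those 6 at E12.5 and, in the rest, clusters 6, 8, 10 and 11 at E12.5 and cluster 11 at E15.5, each with 1 to 7 nuclei. Cluster 3 had the lowest share of fragments at start sites among clusters 1, 3 and 7, 6.49% at E13.5, and cluster 11 a share of 33.7% with the shallowest nuclei of the rest.

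Sequences of the GRCm38.p6 genome, the assembly behind mm10, are shown first for the sites on which the results turn. All members lie on the plus strand. The promoters of Matn1 (chr4:130944135-130944384) and Matn3 (chr12:8947679-8947928), from RefSeq and ending at the base before the start, are shown because these genes had the sharpest maximum in cluster 7. Of each window of 500 bp counted further upstream or in an intron, 300 bases are printed. The intronic Matn3 window (printed part chr12:8954069-8954368) had the highest ratio of clusters 1, 3 and 7 over the rest among the windows listed for the members, in each of the 2 later libraries. The Sox9 window at -238.75 kb (printed part chr11:112543414-112543713) had the highest such ratio among the 10 most accessible upstream windows, in the same 2 libraries. The window at -280.25 kb (printed part chr11:112501854-112502153) was open in cluster 9 and had less than 1 CPM in clusters 1, 3 and 7. Capitals mark the SOX letters AACAAT or ACAAAG on either strand, and none of the first 4 sequences holds them.
Matn1 promoter: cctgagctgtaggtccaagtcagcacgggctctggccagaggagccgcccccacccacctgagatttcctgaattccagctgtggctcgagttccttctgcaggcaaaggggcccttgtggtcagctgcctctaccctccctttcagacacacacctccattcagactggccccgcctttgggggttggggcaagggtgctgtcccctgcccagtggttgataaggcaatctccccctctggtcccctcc
Matn3 promoter: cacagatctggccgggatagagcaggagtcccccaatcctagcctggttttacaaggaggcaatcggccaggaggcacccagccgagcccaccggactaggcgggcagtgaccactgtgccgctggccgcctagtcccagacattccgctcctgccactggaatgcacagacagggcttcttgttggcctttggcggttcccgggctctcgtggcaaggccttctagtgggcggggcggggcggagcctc
Matn3 intron: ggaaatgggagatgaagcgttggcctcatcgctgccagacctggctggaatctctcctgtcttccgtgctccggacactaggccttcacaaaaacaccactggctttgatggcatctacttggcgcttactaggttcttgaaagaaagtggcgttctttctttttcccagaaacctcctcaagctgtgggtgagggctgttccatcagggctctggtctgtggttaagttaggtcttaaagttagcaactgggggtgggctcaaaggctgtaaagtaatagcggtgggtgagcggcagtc
Sox9 upstream, -238.75 kb: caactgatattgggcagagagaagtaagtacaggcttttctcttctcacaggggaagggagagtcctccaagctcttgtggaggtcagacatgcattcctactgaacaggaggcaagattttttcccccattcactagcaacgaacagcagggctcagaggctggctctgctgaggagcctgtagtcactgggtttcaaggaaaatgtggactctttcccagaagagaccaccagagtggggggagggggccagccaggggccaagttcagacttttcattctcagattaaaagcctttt
Sox9 upstream, -280.25 kb: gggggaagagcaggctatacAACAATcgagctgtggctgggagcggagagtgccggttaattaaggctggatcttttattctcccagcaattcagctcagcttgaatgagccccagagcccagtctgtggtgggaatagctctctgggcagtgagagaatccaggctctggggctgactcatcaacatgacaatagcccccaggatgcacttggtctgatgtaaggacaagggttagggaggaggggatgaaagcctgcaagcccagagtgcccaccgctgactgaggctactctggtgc
RefSeq promoters were matched for 4 of the 7 members, Acan, Matn1, Matn3 and Hapln1, and over their 300 bases none held these letters or an opposed pair (ACAAT or ACAAA, 3 to 5 bases, then ATTGT or TTTGT). The RefSeq starts of Acan and Hapln1 lie at -257 and 840 bases from the starts counted here, so the Hapln1 sequence is outside the promoter counted. Of 32851 RefSeq promoters of that length, 27.0% held the single letters and 0.396% the pair. Among the 1000 windows of 500 bases upstream of Sox9, 55.2% held the single letters, against 44.1% of the windows just upstream of the 21602 genes. A match is a run of letters, not a bound site, and its absence says nothing about the factor.

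Sox9 (chr11:112782224-112787760 in mm10, as are all positions here), the master regulator of the set, was accessible in clusters 1, 3 and 7 and in neural clusters alike. At E13.5 its level was 48.2 CPM in cluster 1, 35.4 CPM in cluster 3 and 63.4 CPM in cluster 7. Neural progenitor-like cluster 9 reached 65.6 CPM, a ratio of 1.03 to cluster 7 with a 95% interval from 0.792 to 1.36. These intervals cover counting error only, for 1 library cannot show the spread between embryos. Cluster 5 had 5.56 CPM, and cluster 11 had no Sox9 fragment, which allows up to 6.41 CPM (3 counts). At E15.5 cluster 9 stood alone at the top with 81.2 CPM, 1.51 times (1.12 to 2.01) the 53.9 CPM of cluster 3, and clusters 7 and 1 had 46.5 and 40.0 CPM. At E12.5 Sox9 had 72.5 CPM in cluster 1 and 36.5 CPM in cluster 3. Sox9 thus had its lowest levels at E13.5 in the erythroid-like clusters and no separation between cluster 7 and the neural progenitor-like cluster. A long non-coding RNA on the minus strand, BC006965, starts in the Sox9 promoter, and ATAC-seq cannot tell their signals apart.

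The proteoglycan Acan and its partner Hapln1 were broadly open. Acan (chr7:79053483-79115099), the gene of aggrecan, had 39.4, 68.1 and 60.5 CPM in clusters 1, 3 and 7 at E13.5, and the rest ran from 10.7 CPM in cluster 11 to 50.7 CPM in cluster 9. At E15.5 the same clusters had 39.2, 55.3 and 61.5 CPM and the rest 14.1 to 51.9 CPM, so that cluster 1 lay inside the range of the rest at both stages. Another gene, Gm26633, starts within the 500 bp before the Acan start, inside the promoter counted. Hapln1 (chr13:89539796-89611652), the gene of link protein, had 48.4, 46.4 and 68.4 CPM at E13.5 and 8.55 to 44.2 CPM in the rest, the highest in cluster 0. At E15.5 Hapln1 had 40.5, 63.5 and 54.7 CPM against 14.1 to 40.1 CPM in the rest.

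The matrilin genes had the steepest profiles. Matn1 (chr4:130944385-130955475), whose protein forms filaments in the matrix of growing cartilage, had 71.2 CPM (57.9 to 86.6) in cluster 7 at E13.5, 2.09 times (1.64 to 2.64) the 34.1 CPM of cluster 3, the next in order. Cluster 1 had 17.2 CPM and the rest 0 to 30.4 CPM, the highest in muscle-like cluster 10. At E15.5 this maximum was gone: clusters 1, 3 and 7 had 14.98, 17.0 and 17.6 CPM, within the 2.82 to 20.3 CPM of the rest. Matn3 (chr12:8947929-8972028), which encodes a related matrilin, had 69.8 CPM in cluster 7 at E13.5, 2.40 times (1.88 to 3.06) the 29.0 CPM of cluster 3, with 23.4 CPM in cluster 1 and at most 27.1 CPM in the rest. Unlike for Matn1, the Matn3 maximum was also present at E15.5: 57.7 CPM in cluster 7 was 1.75 times (1.36 to 2.26) the 33.0 CPM of cluster 3, cluster 1 had 28.4 CPM and no cluster of the rest exceeded 21.8 CPM. At E12.5, where cluster 7 had no sum, Matn3 had 26.1 CPM in cluster 1 and 16.9 CPM in cluster 3. Matn1 and Matn3 thus shared a maximum in cluster 7 at E13.5, and Matn3 alone had one there at E15.5.

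Snorc and Comp had values in parts of the rest close to or above those in clusters 1 and 3, except Snorc in cluster 3 at E15.5. Snorc (chr1:87470271-87475482), a membrane proteoglycan gene of chondrocytes, had 7.60, 11.03 and 27.1 CPM in clusters 1, 3 and 7 at E13.5, the last 1.62 times (1.05 to 2.46) the 16.8 CPM of neuron-like cluster 0. At E15.5 it had 6.57, 22.3 and 16.4 CPM, and its highest value in the rest was 13.48 CPM, again in cluster 0. Comp (chr8:70373558-70382066), a thrombospondin-family bridge of the matrix, had its highest value at E13.5 in erythroid-like cluster 11, 66.3 CPM. That sum held 467826 gene fragments, the fewest of the sums compared at E13.5. Clusters 8 and 7 followed with 49.7 and 48.4 CPM. At E15.5 muscle-like cluster 10 had 44.3 CPM and cluster 7 had 42.7 CPM for Comp, which did not differ beyond counting error (ratio 1.04, 0.747 to 1.42). Per kb of counted span, levels in cluster 7 at E13.5 ran from 8.41 CPM for Sox9, 5.44 for Matn1 and 4.61 for Comp to 0.952 for Acan and 0.926 for Hapln1, whose spans are the longest. This order depends on span. Over promoters of equal length Hapln1 and Acan had 16.4 and 9.97 CPM there, above the 8.55 CPM of Comp. Whether a lower level meant fewer open nuclei or less open chromatin per nucleus cannot be told apart in sums.

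**Figure D1:**
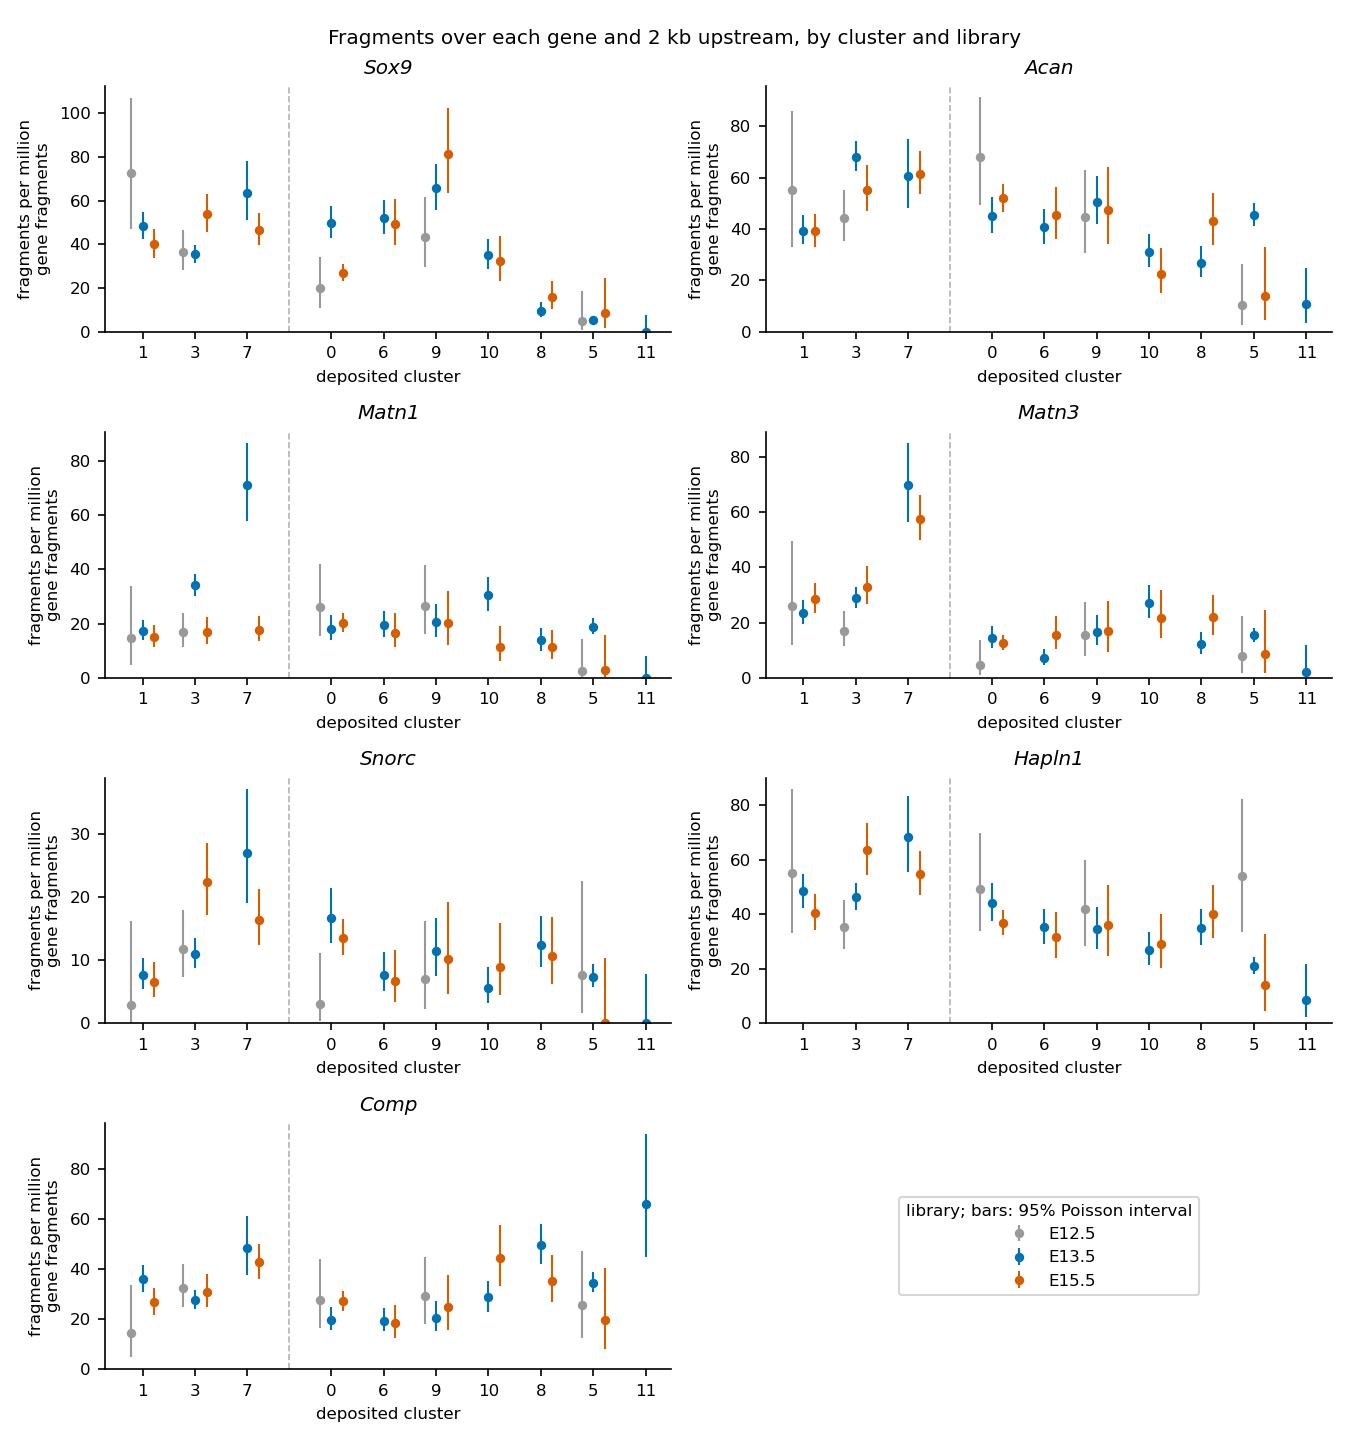
Level of each gene (CPM over the gene and 2 kb upstream, vertical axis) in each deposited cluster (horizontal axis; clusters 1, 3 and 7 left of the dashed line), for sums of at least 10 nuclei; points are sums per library and bars 95% Poisson intervals. Matn1 reaches 71.2 CPM in cluster 7 at E13.5 but 17.6 CPM at E15.5, Matn3 is highest there in both libraries, and Sox9 has 65.6 CPM in cluster 9 beside 63.4 CPM in cluster 7 at E13.5.

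Pooled over clusters 1, 3 and 7, Matn3 had the largest ratio to the rest among the 7 genes in each of the 3 libraries. Its level was 2.08 times (1.81 to 2.40) that of the rest at E13.5, 2.59 times (2.18 to 3.09) at E15.5 and 1.76 times (1.03 to 3.10) at E12.5, except that at the promoter the E12.5 ratio was 0.660, on 5 fragments in clusters 1, 3 and 7 and 7 in the rest. Sox9 had ratios of 1.61 (1.15 to 2.26), 1.51 (1.35 to 1.68) and 1.44 (1.25 to 1.64) in the order of stage. Hapln1 had 1.64 (1.48 to 1.82) at E13.5 and 1.48 (1.30 to 1.69) at E15.5. Those 3 genes had intervals clear of 1 in both larger libraries, as had Acan by a narrow margin at E15.5. Matn1 had 1.64 (1.44 to 1.87) at E13.5 and 0.958 (0.778 to 1.18) at E15.5, and Acan had 1.42 (1.29 to 1.56) and 1.13 with an interval that starts just above 1.00. Snorc had 1.20 (0.976 to 1.47) at E13.5 and 1.30 (1.03 to 1.65) at E15.5, and Comp had 1.06 (0.944 to 1.19) and 1.18 (1.01 to 1.37). At E12.5, the smallest library, the intervals of Acan, Matn1, Snorc, Hapln1 and Comp included 1. Of the 7 genes, 6 were above 1 in both larger libraries and 1 was at least 1.5 in both, beside 28.5% and 3.74% of 20691 genes.

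The Sox9 ratio moved with the clusters placed in the rest. With erythroid-like clusters 5 and 11 left out of the rest, the Sox9 ratio at E13.5 was 1.02 (0.915 to 1.15), and with neural clusters 0, 6 and 9 left out it was 3.53 (2.99 to 4.18). Matn3 had 2.06 (1.76 to 2.42) and 1.87 (1.603 to 2.20) under the same choices. Comp at E13.5 was 0.870 (0.768 to 0.984) without the neural clusters, below 1, and scaling by all fragments also put it below 1, at 0.961 (0.854 to 1.08).

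**Figure D2:**
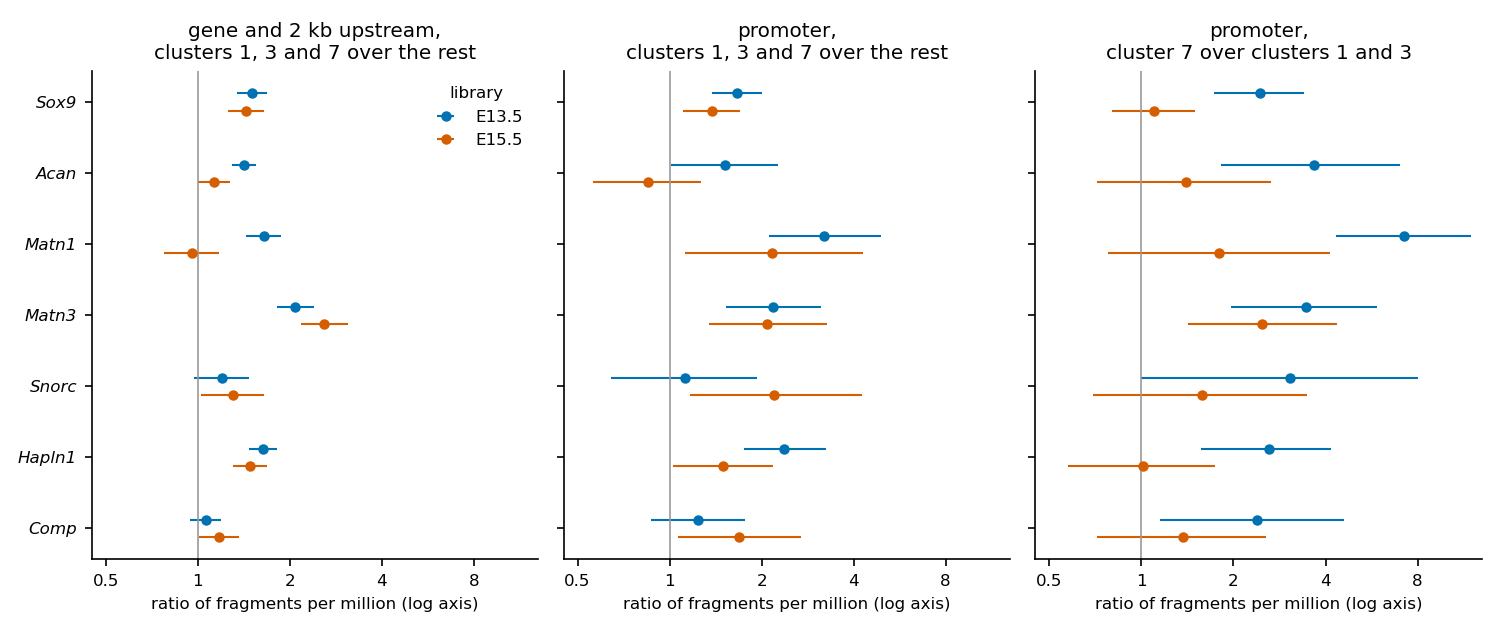
Ratios of pooled CPM (horizontal log axes) for each gene at E13.5 and E15.5: clusters 1, 3 and 7 over the rest for the gene window (left) and the promoter (middle), and cluster 7 over clusters 1 and 3 for the promoter (right); bars are 95% counting intervals. Matn3 lies right of 1 in all 6 cases, and the Matn1 promoter reaches 7.24 in cluster 7 over clusters 1 and 3 at E13.5.

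In the fit across all genes (edgeR quasi-likelihood test on cluster and library sums, Benjamini-Hochberg adjusted over 19697 genes), 6 of the 7 genes were called higher in clusters 1, 3 and 7, against 18.8% of all genes. The clusters were made by the authors from the same fragments, so these p-values describe the deposited clusters and are no independent test, and the libraries stand for single embryo stages. The median log2 difference over all genes was 0.14 in this fit, 0.10, 0.24 and 0.12 for clusters 1, 3 and 7 taken singly, 0.21 for promoters and -0.02 without cluster 11, and each log2 value is read against that of its own fit. Sox9 had a log2 difference of 2.24 ± 0.31 (approximate SE derived from the F statistic, adjusted p = 7.21e-07) and Matn3 one of 1.64 ± 0.21 (adjusted p = 2.64e-07). Matn1 had 1.77 ± 0.42 (adjusted p = 0.00184), Snorc 1.66 ± 0.47 (adjusted p = 0.00799), Hapln1 0.88 ± 0.17 (adjusted p = 0.000137) and Acan 0.71 ± 0.18 (adjusted p = 0.00277). Comp, at 0.09 ± 0.16 (adjusted p = 0.708), was not called.

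These calls rested on the erythroid-like clusters and on the E13.5 library. With cluster 11 left out of the rest, 3 members were called (Sox9 0.93, Matn3 1.24 and Hapln1 0.60 on the log2 scale) beside 5.97% of all genes. Without clusters 5 and 11 the calls were Matn3 at 1.20 and Hapln1 at 0.52, beside 4.61%, and Sox9 had 0.49 (edgeR, adjusted p = 0.0545). Without the E13.5 library, which also removed cluster 11 from the fit, Matn3 alone was called, at 1.22 (edgeR, adjusted p = 0.0257), beside 0.755%. The fitted values for Sox9, Matn1 and Snorc against cluster 11, where each had 0 fragments, depend on the prior count of the fit. The pooled ratios above do not use that count, but they weight the rest by depth, and its make-up differed between libraries. Cluster 5 held 8628521 gene fragments of the rest at E13.5 and 354556 at E15.5, and cluster 0 held 3641374 and 6823181. Without clusters 5 and 11 the median pooled ratio of the members was 1.38 at E13.5 and 1.26 at E15.5, in place of 1.51 and 1.30. The part of this shift in differences between the stages was not tested.

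Taken cluster by cluster, fitted differences were large in cluster 7, but by level it did not always lead cluster 3. At E15.5 cluster 3 stood above cluster 7 for Sox9 (53.9 against 46.5 CPM), Snorc (22.3 against 16.4) and Hapln1 (63.5 against 54.7). Acan, Matn1, Matn3 and Comp were higher in cluster 7 at that stage. At E13.5 all members but Acan (60.5 against 68.1 CPM in cluster 3) were higher in cluster 7. In cluster 7 edgeR called 6 of the 7 genes higher than the rest, against 8.60% of all genes: Matn1 (log2 2.44 ± 0.49), Matn3 (2.41 ± 0.28), Sox9 (2.37 ± 0.41), Snorc (2.29 ± 0.55), Hapln1 (1.15 ± 0.25) and Acan (0.91 ± 0.26). Comp had 0.50 ± 0.25 (adjusted p = 0.227). Without clusters 5 and 11, 3 of these calls were left beside 2.33% of all genes, Matn3 at 1.97, Matn1 at 1.06 and Hapln1 at 0.76, and without E13.5 edgeR left 0, with 2 of 7 at an unadjusted p under 0.05 and Matn3 at 1.81 (adjusted p = 0.0851), beside 0.0904% of all genes called. Cluster 3 had 6 calls against 21.5% of all genes, with Comp again the exception, and cluster 1 had 3, Sox9, Matn3 and Hapln1, against 10.6%. Without clusters 5 and 11 the calls in cluster 3 numbered 1, beside 3.45% of all genes, and those in cluster 1 numbered 0, beside 3.74%, with 2 members of 7 at an unadjusted p under 0.05 in cluster 1. Without E13.5 edgeR called 0 members in cluster 3, where 3 of 7 had an unadjusted p under 0.05, beside 0.0372% of all genes. It also called 0 in cluster 1, where 2 of 7 did, beside 0.649%.

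At E13.5 the pooled ratio to the rest was larger at the promoter than over the gene for every member but Snorc. At E15.5 it was smaller at the promoter for Matn3, Sox9 and Acan, and these differences were not tested. The Matn1 promoter had 21.4 CPM (14.4 to 30.5, 30 fragments) in cluster 7 at E13.5 and 3.30 CPM or less in every other cluster. The Matn3 promoter had 14.2 CPM there against 6.00 CPM in cluster 1, the Hapln1 promoter 16.4 CPM against 9.40 CPM in cluster 1, and the Acan promoter 9.97 CPM against 5.96 CPM in cluster 9. For Sox9, promoter levels in clusters 7 and 9 were 32.8 and 29.8 CPM at E13.5 (ratio 1.10, 0.741 to 1.62), and at E15.5 cluster 9 led with 36.1 CPM. Pooled over clusters 1, 3 and 7 the promoter ratios to the rest at E13.5 and E15.5 were 3.19 and 2.17 for Matn1, 2.19 and 2.09 for Matn3, 2.38 and 1.49 for Hapln1 and 1.66 and 1.37 for Sox9. Acan had 1.52 at E13.5 and 0.849 (0.564 to 1.27) at E15.5. Snorc had 1.13 (0.645 to 1.93) and 2.19 (1.16 to 4.25), and Comp 1.24 (0.872 to 1.76) and 1.69 (1.06 to 2.70), so both promoters had intervals clear of 1 at the later stage. The edgeR fit called 5 of the 7 promoters higher, against 18.1% of 15593: Matn1 (log2 2.86 ± 0.54), Sox9 (2.20 ± 0.27), Hapln1 (2.18 ± 0.40), Matn3 (1.92 ± 0.45) and Acan (1.55 ± 0.51). Snorc (adjusted p = 0.0643) and Comp (adjusted p = 0.103) were not called by edgeR. Both were called by DESeq2, where 3109 of 15593 promoters were called higher. With clusters 2 and 4 among the rest edgeR called all 7 promoters, but there 3684 of 14928 promoters were called higher. The median log2 difference over all promoters was 0.776 in that fit. With clusters 5 and 11 left out, Sox9, Matn1, Matn3 and Hapln1 were still called, beside 5.66% of promoters, as they were with cluster 11 alone left out, beside 9.38%. Without E13.5 edgeR called 0 of the 5 members still tested, 2 of them having an unadjusted p under 0.05, while 2.58% of all promoters were called higher.

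At E13.5 promoter levels in cluster 7 lay above those of clusters 1 and 3 together. At E13.5 the ratio of cluster 7 to clusters 1 and 3 together was 7.24 (4.33 to 12.005) for Matn1, 3.67 (1.82 to 7.00) for Acan, 3.46 (1.96 to 5.89) for Matn3, 2.60 (1.56 to 4.18) for Hapln1, 2.44 (1.72 to 3.39) for Sox9 and 2.39 (1.15 to 4.59) for Comp. Snorc had 3.06 on 6 fragments in cluster 7 (0.994 to 8.04). At E15.5 only Matn3, at 2.48 (1.42 to 4.37), had an interval above 1, and Matn1 had 1.80 (0.779 to 4.13). All 7 ratios were above 1 in both libraries, beside 36.6% of 15314 promoters, and 3 were at least 1.5 in both, beside 6.197%. Epithelial markers, too, had their highest sum in cluster 7.

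Some nuclei of cluster 7 carried several member promoters at once. At E13.5, 13 of 36 nuclei had fragments at 3 or more of the 7 promoters, as had 14 of 133 in cluster 3, 9 of 125 in cluster 1, 6 of 49 in muscle-like cluster 10 and 4 of 50 in cluster 9. Leaving Sox9 out, 12 of the 36 still had 3 or more, as had 6 in cluster 3, 5 in cluster 1, 1 in cluster 10 and 1 in cluster 9. At E15.5 the counts were 11 of 67 in cluster 7, 11 of 50 in cluster 3 and 4 of 20 in cluster 9. Nuclei differ in depth, so each was also thinned to 20000 fragments and asked for 2 promoters: 7 of 31 nuclei of cluster 7 passed at E13.5, 10 of 122 in cluster 1, 3 of 133 in cluster 3 and 4 of 49 in cluster 9, with 5, 3, 0 and 1 shallower nuclei left out. At E15.5 the thinned counts were 7 of 63 in cluster 7, 5 of 50 in cluster 3, 9 of 105 in cluster 1 and 4 of 18 in cluster 9, so that cluster 9 had the larger share at that stage. That share rested on Sox9: without it the thinned counts at E15.5 were 1 of 18 in cluster 9, 3 of 63 in cluster 7, 2 of 50 in cluster 3 and 3 of 105 in cluster 1. In erythroid-like cluster 5, 5 of 166 nuclei had 3 promoters before thinning at E13.5. After thinning 0 of its 145 deep enough nuclei had 2, an upper limit of 2.07% that holds for the thinned count only. No doublet caller was run, so barcodes that hold more than 1 nucleus were not removed here, and their part in these counts was not tested.

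In cluster 7 at E13.5 the nuclei with more member promoters also had the higher levels of the cartilage collagens, a set that shares no gene with the 7. In the 13 nuclei with 3 or more promoters the 8 collagens summed to 2010 CPM (1909 to 2114), against 814 CPM in the 11 nuclei with 1 or 2 and 446 CPM in the 12 with none. Per nucleus the collagen sums ran from 890 to 3030 CPM in the first class, with a median of 2278 CPM, and from 0 to 807 CPM in the last, with a median of 285 CPM. Both ends of the last range came from shallow nuclei of 3765 to 7847 fragments. The 7 epithelial markers gave 526, 699 and 607 CPM in the same classes, so they did not follow the cartilage promoters at E13.5. Mesenchymal markers gave 589, 450 and 252 CPM and so moved with the promoters too. Wwp2, a ubiquitin ligase gene that hosts a cartilage microRNA, gave 606, 204 and 385 CPM. At E13.5 the collagens had no such order in cluster 1, with 575, 575 and 635 CPM, and differed less in cluster 3, with 748, 690 and 672 CPM. The classes also differed in median depth, 91760, 53929 and 32070 fragments per nucleus, and the part of depth in the class sizes was not tested beyond the thinning. In cluster 7 at E15.5 the collagens gave 1092, 694 and 476 CPM and the epithelial markers 589, 524 and 276 CPM, so there both lists moved with the promoters. Cluster 3 at E15.5 had 1100, 667 and 781 CPM of collagens, so its class with 3 or more promoters was level with that of cluster 7. Cluster 1 had 745, 787 and 600 CPM. Per nucleus the collagen classes of cluster 7 overlapped at E15.5, from 92.3 to 3423 CPM with a median of 1059 CPM for 3 or more promoters and from 225 to 1098 CPM with a median of 378 CPM for none.

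Ranking the nuclei of cluster 7 by their CPM summed over the 7 genes gave a like split. The upper 18 nuclei at E13.5 had 3.15 times (2.83 to 3.51) the collagen level of the lower 18, 1.70 times (1.45 to 1.99) the mesenchymal, 0.815 times (0.709 to 0.936) the epithelial and 0.743 times (0.607 to 0.909) the Schwann and neural crest level. At E15.5 the ratios were 1.63 (1.503 to 1.77) for collagens, 1.34 (1.21 to 1.48) for epithelial, 1.14 (1.03 to 1.26) for mesenchymal and 0.877 (0.766 to 1.00) for Schwann and neural crest markers. This split orders nuclei by the members themselves, 4 and 8 nuclei lay within 10% of its median, and it is a description with no test. Barcodes of 1 library that share over 10% of the fragments of the shallower one may mark the same nucleus. Keeping 1 per linked group dropped 10 of the 36 barcodes at E13.5 and left all 13 nuclei with 3 promoters, with a collagen ratio of 2.87 (2.59 to 3.20) and an epithelial ratio of 0.905 (0.781 to 1.05), whose interval included 1.

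**Figure D3:**
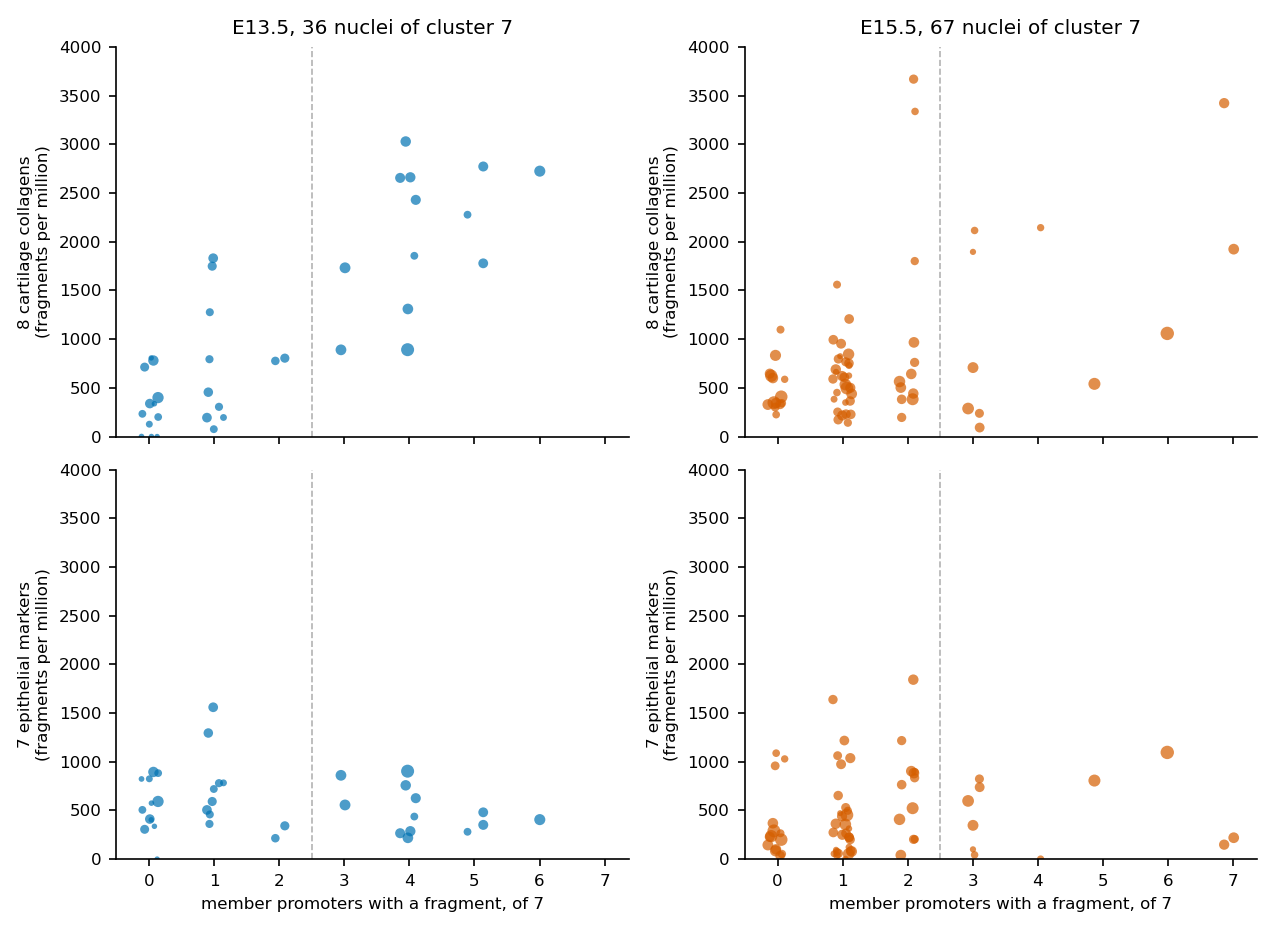
Each point is 1 nucleus of cluster 7 at E13.5 (36 nuclei, left) or E15.5 (67 nuclei, right), placed by the number of the 7 member promoters with a fragment (horizontal axis, jittered) and by its summed level of 8 cartilage collagens (upper) or 7 epithelial markers (lower) in CPM, where larger points have more fragments, and the dashed line separates nuclei with 3 or more promoters. At E13.5 all 13 nuclei right of the line have at least 890 CPM of collagens, while their epithelial levels overlap those on the left.

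Beyond the gene itself, the 500 kb upstream of Sox9 (chr11:112282224-112782223) were more accessible in clusters 1, 3 and 7 pooled than in the rest. The region had ratios to the rest of 1.25 (1.14 to 1.38) at E12.5, 1.77 (1.70 to 1.83) at E13.5 and 1.42 (1.35 to 1.49) at E15.5. Cluster 7 had 466 CPM at E13.5, cluster 3 402 CPM, cluster 9 400 CPM and cluster 1 339 CPM, and the remaining clusters 38.5 to 310 CPM. The lowest were erythroid-like clusters 11 and 5, with 38.5 and 135 CPM. At E15.5 cluster 3 was highest with 436 CPM, ahead of clusters 9 and 7 with 307 and 305 CPM, and cluster 1 had 264 CPM, below the 266 CPM of neuron-like cluster 6. The excess was spread over many bins: 77 of 100 bins of 5 kb were above 1 in both libraries, beside 33.8% of 482610 bins of the genome, and 36 were at least 1.5 in both, beside 7.74%. The median bin had 1.74 and 1.43, against 1.20 and 0.963 genome-wide. No ratio or bin count of this region was computed with clusters 5 and 11 left out of the rest. Cluster 5 held 8628521 gene fragments of the rest at E13.5 and 354556 at E15.5, and its part in the difference between 1.77 and 1.42 was not tested. Between 100 and 500 kb the ratio at E13.5 was 1.79 (1.71 to 1.87), and over the first 100 kb 1.70 (1.59 to 1.83). The order was the other way at E12.5, with 1.17 (1.05 to 1.31) against 1.51 (1.25 to 1.82). It was so too at E15.5, with 1.37 (1.29 to 1.46) against 1.53 (1.39 to 1.67).

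Single windows of 500 bp showed that the upstream sites did not share one pattern. Of the 10 most accessible windows, 6 lay at -0.25, -0.75, -1.25, -2.25, -2.75 and -3.75 kb, inside BC006965. The first of these, which holds the start of BC006965, had ratios of 1.66 (1.33 to 2.08) and 1.33 (1.04 to 1.69) at E13.5 and E15.5, and its level was 22.8 CPM in cluster 9, 16.8 CPM in cluster 7 and 14.8 CPM in cluster 1. The window at -238.75 kb had a ratio of 4.05 (2.38 to 7.11) at E13.5 and 2.57 (1.15 to 6.14) at E15.5, with 4.05 CPM in cluster 1, 2.40 CPM in cluster 3 and 1.78 CPM in cluster 7 over the 3 libraries, beside 3.29 CPM in cluster 9. Its E12.5 ratio was 1.29 (0.353 to 5.17), and at that stage the window at -3.75 kb stood higher, at 3.46 (1.10 to 14.3). A pair of neighbouring windows at -161.25 and -160.75 kb had ratios of 2.10 (1.37 to 3.22) and 2.26 (1.37 to 3.76) at E13.5, and cluster 1 was their highest cluster. At E15.5 the first had 1.47 (0.851 to 2.57), which included 1, and the second 2.21 (1.20 to 4.196). The first had 0 fragments in clusters 1, 3 and 7 and 7 in the rest at E12.5, where the ratio could reach 0.641. The window at -280.25 kb went the other way: it had 17.7 CPM in cluster 9 and at most 2.51 CPM in any other cluster, with ratios of 0.257 (0.106 to 0.544) and 0.221 (0.0669 to 0.578). The 300 bases printed hold AACAAT, and the whole window holds 2 matches to the SOX letters, which 55.2% of the windows of that length upstream of Sox9 hold at least once. None of these 4 distal windows lay in an annotated gene.

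For the other members the highest window of each gene, averaged equally over the 10 clusters, was read the same way. Those of Matn3 and Hapln1 lay just before the start, at -0.25 kb, with ratios at E13.5 and E15.5 of 2.38 (1.53 to 3.71) and 2.02 (1.23 to 3.36) for Matn3 and 2.55 (1.75 to 3.75) and 1.43 (0.886 to 2.30) for Hapln1. That of Matn1, an intronic window 3.25 kb past the start, had 1.63 (1.13 to 2.35) and 1.15 (0.738 to 1.78). For Snorc an exonic window at 2.25 kb had 1.74 (0.917 to 3.29) and 3.03 (1.45 to 6.80). The next most accessible Snorc window, exonic at 5.25 kb, went the other way, with 0.805 (0.441 to 1.42) and 0.107 (0.0123 to 0.431). The one after it, at 1.25 kb, had 2.43 (1.19 to 5.07) and 2.44 (1.08 to 5.87). The top windows of Acan and Comp did not separate the groups: 1.39 (0.845 to 2.27) and 0.985 (0.606 to 1.59) for Acan, 0.997 (0.764 to 1.29) and 1.38 (0.978 to 1.94) for Comp, whose window had 46.4 CPM in cluster 11. Chosen after their values were seen, the intronic Matn3 window at 6.25 kb had 6.56 (3.08 to 15.6) and 6.78 (2.99 to 18.0), with 6.32 CPM in cluster 7, where E12.5 had 3 fragments in clusters 1, 3 and 7 and 0 in the rest, and the window holding the printed Matn1 promoter had 5.21 (3.01 to 9.44) and 4.06 (1.56 to 12.4), with at most 1.84 CPM in any cluster but 7.

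**Figure D4:**
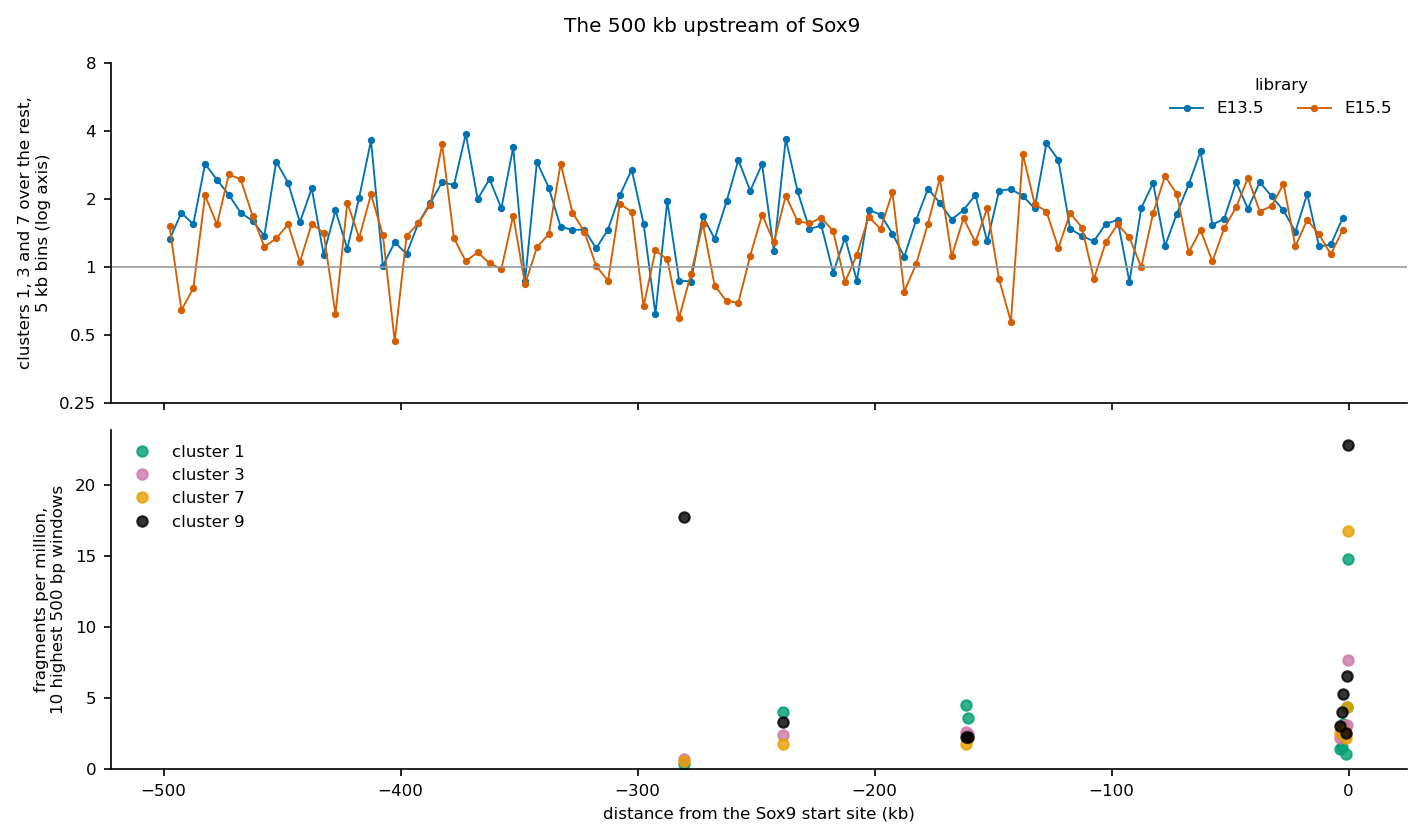
Upper: ratio of clusters 1, 3 and 7 over the rest in 5 kb bins (vertical log axis) by distance from the Sox9 start in kb, for E13.5 and E15.5. Lower: CPM over all 3 libraries in the 10 most accessible 500 bp windows, for clusters 1, 3, 7 and 9. Most bins lie above 1 in both libraries, and the window at -280.25 kb is open in cluster 9, at 17.7 CPM, with less than 1 CPM in clusters 1, 3 and 7.

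Between E13.5 and E15.5 the levels of several genes differed, in different directions in different clusters. No test is possible with 1 library per stage, and embryo, section and stage cannot be told apart. Matn1 was lower at E15.5 in cluster 7, with a ratio of 0.247 (0.176 to 0.343), and in cluster 3, with 0.499 (0.359 to 0.680), and its promoter in cluster 7 had 0.178 (0.0853 to 0.352). The share of cluster 7 nuclei with a Matn1 fragment was 63.9% at E13.5 and 34.3% at E15.5, where the median depth per nucleus was greater. In the same cluster the 6 chondrocyte collagens went from 994 to 443 CPM, Col2a1 from 279 to 111 CPM, and nuclei with 3 or more member promoters from 13 of 36 to 11 of 67, and their part in the Matn1 ratio was not tested. Over all genes in cluster 7 the quartiles of this ratio were 0.799 and 1.31. Sox9 was higher in cluster 3, 1.52 (1.24 to 1.86), and lower in cluster 7, 0.734 (0.563 to 0.963), where it was 0.771 (0.591 to 1.01) scaled by all fragments, 0.669 (0.513 to 0.877) with 1 barcode per linked group and 0.599 (0.405 to 0.891) at the promoter. Snorc was likewise higher in cluster 3, 2.03 (1.44 to 2.83), and lower in cluster 7, 0.606 (0.394 to 0.940), where its promoter alone had 0.890 (0.316 to 2.86). Hapln1 was higher in cluster 3, 1.37 (1.14 to 1.64), while its promoter was lower in cluster 7, 0.393 (0.209 to 0.738), and in cluster 1, 0.559 (0.314 to 0.962). With 1 barcode per linked group the Hapln1 ratio in cluster 7 was 0.730 (0.567 to 0.943), against 0.800 (0.623 to 1.03) with all barcodes. In cluster 1 it was 0.802 (0.647 to 0.990), against 0.836 (0.679 to 1.03). Acan was lower in cluster 3, 0.812 (0.675 to 0.973), and its promoter higher in cluster 1, 2.19 (1.02 to 4.91). Comp had 0.744 (0.578 to 0.954) in cluster 1. For Matn3 every interval within a cluster included 1, and pooled over the 3 clusters it had 1.28 (1.11 to 1.46). The share of the 3 clusters held by each differed between the libraries, cluster 3 having 133 nuclei at E13.5 and 50 at E15.5, which moves with the pooled value.

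**Figure D5:**
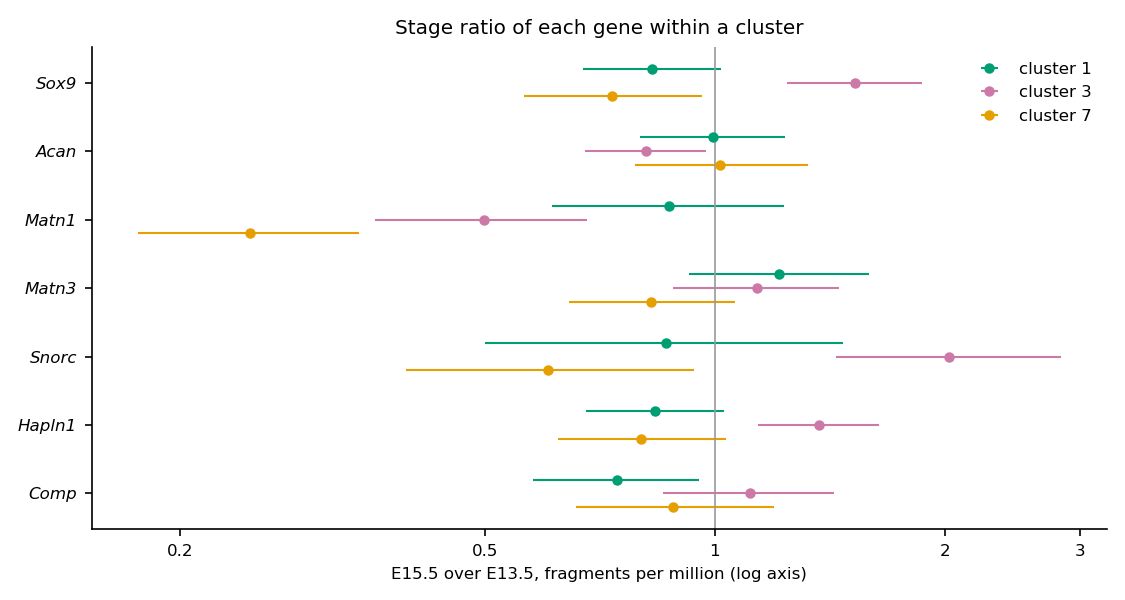
Ratio of CPM at E15.5 over E13.5 (horizontal log axis) for each gene within clusters 1, 3 and 7; bars are 95% counting intervals from 1 library per stage. Matn1 has the lowest ratio, 0.247 in cluster 7, and Sox9 and Snorc lie on opposite sides of 1 in clusters 3 and 7.

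Other cartilage genes were taken from lists that name no member and were chosen, like the members, with earlier results known. Of 13 cartilage regulators, 11 were counted (Sox5 and Sox6 span over 500 kb) and all 11 were called higher in clusters 1, 3 and 7 by the same edgeR fit, against 18.8% of all genes, with a median log2 of 1.34. Like the members' calls, these belong to a fit whose number of called genes, 5485 in both directions, was 1532 without clusters 5 and 11 and 173 without E13.5. The largest fitted values were those of Pthlh, a ligand that holds chondrocytes in proliferation, at 2.25, Barx1 at 1.98, the chondrogenic repressor Nkx3-2 at 1.87 and the joint ligand Gdf5 at 1.84. Among 15 further matrix and matrix-making genes, 11 were called higher and none lower, with a median of 1.03, and the largest fitted values were those of the matrilin Matn4 at 2.25, Cytl1 at 1.81, Ucma at 1.58 and Chad at 1.44. Each of these 8 genes had 0 fragments in at least 1 cluster of the rest at E13.5, so their fitted values depend on the prior count of the fit. The pooled ratios to the rest at E13.5 and E15.5 were 2.09 and 2.28 for Pthlh, 2.05 and 1.33 for Matn4, 1.30 and 1.31 for Ucma and 1.05 (0.884 to 1.25) and 1.44 for Chad. By that measure Epyc, a small matrix proteoglycan gene, was highest of the 15, with 2.53 and 2.19. Not all regulators called higher were so by pooled ratio. Fgfr3 had 0.908 (0.818 to 1.01) and 1.19 (1.05 to 1.34) and was highest in cluster 9 at both stages. Ihh had 1.03 (0.861 to 1.22) and 1.15 (0.940 to 1.41). The other counted regulators had intervals above 1 in both libraries. Of 13 relatives of the members in their protein families 7 were called higher, with the largest fitted values for the thrombospondins Thbs2 (1.4997), Thbs4 (1.49) and Thbs1 (1.46), and 1 lower, the brain proteoglycan Ncan at -0.83. Their pooled ratios at E13.5 and E15.5 were 2.86 and 3.11 for Thbs2, 2.20 and 1.98 for Thbs1 and 1.49 and 0.958 (0.830 to 1.10) for Thbs4, whose E15.5 interval included 1. Of the 8 cartilage collagens 7 were called higher, with Col9a1 at 2.29 and Col2a1 at 1.61, and Col10a1 of hypertrophic cartilage was not. Col9a1 also had 0 fragments in a cluster of the rest at E13.5, and the pooled ratios at E13.5 and E15.5 were 1.63 and 1.25 for Col9a1 and 1.69 and 1.31 for Col2a1.

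The same contrast, with its 18.8% of all genes called higher and the same dependence on clusters 5, 11 and E13.5, called higher 8 of 8 mesenchymal, 6 of 7 epithelial, 3 of 3 tendon and 2 of 6 Schwann and neural crest markers. It called lower 4 of 5 erythroid markers, beside 1773 of 19697 genes. The mesenchymal, epithelial and erythroid lists had also served to describe these clusters, so their counts were bound up with that choice and add no support. Wwp2, chosen after its values were seen, was also steep in cluster 7 at E13.5, with 453 CPM against 165 and 172 CPM in clusters 1 and 3 and 99.6 to 173 CPM in the rest. Col2a1 had 279 CPM in cluster 7 and Col9a1 183 CPM, and at E15.5 these were 111 and 74.0 CPM.

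Across the 24 sums, Acan and Matn1 had the most alike levels among members, with Pearson r of 0.86 on log2(CPM + 1), and Sox9 and Comp the least, with -0.47. The points share libraries and clusters of unequal depth, and these values are descriptions. By the same measure the genes most like each member among 19696 were Kctd15 (0.96) and Gli2 (0.95) for Sox9, Kiss1 (0.89) and Npcd (0.88) for Acan, Inava (0.93) and Smyd2 (0.91) for Matn1 and S100a3 (0.88) and Synpo (0.85) for Matn3. For Snorc they were Gpr17 (0.90) and Wfdc1 (0.90), for Hapln1 Wfdc2 (0.91) and Eps8 (0.88), and for Comp Cdkl3 (0.83) and Catsperg1 (0.78). Col2a1 had 0.89 with Sox9 and -0.36 with Comp.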

How the data were processed

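Nuclei of 3 sorted snATAC-seq libraries, 1 per stage, were profiled on the 10x platform. Per the submitters' processing notes, reads were processed with Cell Ranger ATAC 2.0.0, Seurat 4.1.0 and Signac 1.6.0 against mm10. The authors deposited fragment files, whose last column holds the counts of read pairs behind each unique fragment, and a table of nuclei with tallies and cluster numbers. Per the study's methods the nuclei were integrated with the spatial profiles by anchors and Harmony, with the sample as grouping variable. No source used here states the clustering resolution, and no doublet caller was run. Of the 23 columns of the table, 20 were not used. Fragment totals recomputed from the deposited files differed from its tallies by at most 0.604%. No barcode of the table was shared by E12.5 with another library, and 1 was shared by E13.5 and E15.5.

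Each unique fragment was counted once, whatever its read pairs. Of 21938 protein-coding genes of GENCODE vM21, 79 Pcdh and Ugt genes, 231 with a span over 500 kb and 26 with a repeated symbol were left out. Gene windows held the body and 2000 bp upstream, and promoters 1000 bp before to 100 bp after the start. Ratios of pooled CPM carry exact conditional binomial 95% intervals, and single levels exact Poisson ones. Cluster and library sums of at least 10 nuclei were fitted with edgeR 4.0.16 in R 4.3.3 (quasi-likelihood, TMM, library as a block), with calls at a Benjamini-Hochberg adjusted p of 0.05. Each edgeR ± value is the absolute log2 difference divided by the square root of its F statistic, an approximation and not a standard error given by the fit. The library pairs the sums, since clusters of 1 library come from the same sections. DESeq2 1.42.0 was an alternative, as were other scalings, filters and cluster sets. Other values were computed in Python 3.11.15 with numpy 2.4.6, pandas 2.3.3 and scipy 1.17.1, and drawn with matplotlib 3.10.9. The steps were tested on simulated data.

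The members and lists were chosen with earlier results of these data known. Named list genes were those with the largest log2 difference in a list, and genes most like a member those with the highest Pearson r. Clusters 2 and 4, of shallow nuclei, were left out of the comparisons except in 1 alternative, and clusters 5 and 11 were left out of the rest in alternatives chosen after seeing the data.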

Additional observations from a re-analysis of the deposited data

Results flagged for a closer look

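The ratio of E15.5 to E13.5 lay on opposite sides of 1 in clusters 3 and 7 for a pair of members. Sox9 had 1.52 (1.24 to 1.86) in cluster 3 and 0.734 (0.563 to 0.963) in cluster 7, and Snorc, the membrane proteoglycan gene, had 2.03 (1.44 to 2.83) in cluster 3 and 0.606 (0.394 to 0.940) in cluster 7. Sox9 in cluster 7 had 0.771 (0.591 to 1.01) scaled by all fragments, 0.669 (0.513 to 0.877) with 1 barcode per linked group and 0.599 (0.405 to 0.891) at the promoter, and the Snorc promoter there had 0.890 (0.316 to 2.86). The difference between the clusters was not tested, since each stage had 1 library and the intervals cover counting error only.

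Nuclei left out of the comparisons, except where clusters 2 and 4 were added to the rest as an alternative, also held member signal at E13.5. The 7 genes summed to 288 CPM in cluster 2 (227 fragments, where 3 fragments equal 3.81 CPM) and to 331 CPM in cluster 4 (12 fragments, where 3 fragments equal 82.8 CPM). The same sum was 409 CPM in cluster 7 and 87.6 CPM in cluster 11.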

How the results depend on the processing

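The number of genes called by edgeR in clusters 1, 3 and 7 against the rest (5485) was 173 to 6281 when 1 library was left out, lowest without E13.5, 2970 with clusters 2 and 4 among the rest, 1653 without cluster 11, 1532 without clusters 5 and 11 and 2900 without cluster 3 in the fit. In cluster 1 (2489) the numbers were 134 to 2680 with 1 library left out, 1144 without cluster 11 and 1192 without clusters 5 and 11. In cluster 3 (6553) they were 7 to 6837, 1496 and 1021, and 2757 with clusters 2 and 4. In cluster 7 (1887) they were 18 to 2488, 552 and 788, and 1092 with clusters 2 and 4. For promoters (3460) they were 323 to 3781, 1650 and 1131. Of the 7 members, leaving out a library left 1 to 6 called in clusters 1, 3 and 7, 0 to 3 in cluster 1, 0 to 6 in cluster 3, 0 to 6 in cluster 7 and 0 to 5 at promoters, lowest without E13.5, when fewer sums were fitted and cluster 11 was absent. Without cluster 11, 3 were called in clusters 1, 3 and 7 and 2 in cluster 3, beside 1146 and 947 of 19211 genes called higher. Without clusters 5 and 11, 2 were called in clusters 1, 3 and 7, 0 in cluster 1, 1 in cluster 3 and 3 in cluster 7. Beside these, 887, 720, 663 and 449 of 19232 genes were called higher. Without the library as a block, 5274 genes were called and the pairing left these 5 counts of members called as they were (6, 3, 6, 6 and 5), while at promoters in cluster 1 it was 2 in place of 3. DESeq2 called 6 of the 7 members in clusters 1, 3 and 7, beside 3728 of 19697 genes called higher. At promoters DESeq2 called 7 of the 7 members, beside 3109 of 15593 promoters called higher. With DESeq2 size factors edgeR called 6, beside 3345 of 15593, and with clusters 2 and 4 among the rest 7, beside 3684 of 14928. For genes, adding clusters 2 and 4 to the rest left 2 members called in cluster 1, 4 in cluster 3 and 5 in cluster 7. Beside these, 1678, 2487 and 1049 of 19704 genes were called higher.

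The ratio of the 7 genes summed (1.10, 1.48 and 1.37 by stage) was 1.51, 1.73 and 1.65 with clusters weighted equally, 1.77, 1.64 and 1.57 without neural clusters, 1.80 and 1.46 at promoters at the later stages, 1.32 at E12.5 and 1.75 at E13.5 scaled by fragments at start sites, 1.34 at E13.5 scaled by all fragments and 1.35 at E13.5 without clusters 5 and 11. The ratio upstream of Sox9 was 1.51 and 1.53 over the first 100 kb at E12.5 and E15.5, 1.56 and 1.68 with equal weights, and 1.597 at E13.5 scaled by all fragments. The summed stage ratio of 0.987 was 1.05 scaled by all fragments and 1.08 at promoters. With the 25% of cluster 7 nuclei highest in member CPM against the lowest 25%, the collagen ratio was 8.96 and 2.54 at the later stages, the epithelial ratio 0.683 and 1.07, and the Schwann and neural crest ratio at E13.5 1.11, on the other side of 1, while it was 0.567 with 1 barcode per linked group. Of single ratios whose interval excluded 1, those on the other side of it under an alternative were those at the promoters of Matn3 at E12.5 (0.660) and Acan at E15.5 (0.849) and that of Comp at E15.5 without neural clusters (0.900). Ratios whose interval included 1 crossed it too, such as Comp at E13.5 (0.870 without neural clusters, 0.961 scaled by all fragments) and Matn1 at E15.5 (2.17 at the promoter). Of 542 fitted member differences under alternatives, 473 had the same call, 64 lost it, 5 gained one and 0 changed direction past the threshold. The causes were not tested.

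Each stage had 1 library, so the spread between embryos is unknown, and E12.5 held too few nuclei of cluster 7 for a sum. Promoter ratios in cluster 7 rest on 6 to 67 fragments. Intervals and limits cover counting error only.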
